A study of Homo sapiens with 24 samples.

Results

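The comparison asks how puromycin changed the recovery of RNAs with GFP-tagged RUVBL1 in cells whose RUVBL1/RUVBL2 ATPase had already been inhibited with CB-6644. For each gene, the enrichment on GFP beads over uncoupled beads after CB-6644 alone was subtracted from the enrichment after CB-6644 plus puromycin. All 28307 genes of the count table were eligible, and 15976 of them had enough counts to be tested. The comparison used 8 of the 24 libraries of the series.

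All 8 libraries came from HCT116, a human colorectal carcinoma cell line, carrying a GFP knock-in at RUVBL1, so bait and control libraries shared the tagged allele. They formed 4 groups of 2: GFP-Trap beads or uncoupled agarose control beads, each from cells given CB-6644 (0.5 µM, 16 h) alone or given CB-6644 together with puromycin (100 µg/mL, 30 min). The other 8 libraries of this line had the same beads and puromycin dose without CB-6644, and the 8 of an RPAP3 GFP knock-in line had no CB-6644. The labels name no clone and do not say whether replicates were separate cultures, and the spread behind each p-value may therefore be that of technical repeats. Total lysate RNA was not analysed here, and a change in enrichment is always read against the uncoupled beads of the same treatment.

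RUVBL1 and RUVBL2 are AAA+ ATPases that form a ring-shaped complex. With RPAP3 and PIH1D1 they make up R2TP, a partner of HSP90 in the assembly of RNA polymerases, snoRNPs, the U5 snRNP and PIKK kinases, and they are also lasting subunits of the INO80, SRCAP and TIP60 chromatin remodelling complexes. CB-6644 blocks their ATPase activity. Puromycin is joined to growing polypeptides and frees them from the ribosome, so an mRNA that is held on a bait through the protein being made from it is lost from the beads after puromycin, whereas an RNA bound in another way need not be.

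Total counts ranged from 9019665 to 27883137 over the 8 libraries. The defining epithelial genes of the line summed to between 3869 and 6253 CPM (counts scaled by library depth), although 2 of them, VIL1 and CDH17, were near 0 with 18 and 4 counts over the 8 libraries. A pair of libraries stood apart from the rest of the line on the first principal component, which held 24.4% of the variance: GFP bead replicate 2 after CB-6644 at 110.5 and GFP bead replicate 1 after CB-6644 plus puromycin at 71.98, with the other 14 libraries at -47.83 to 11.7. The former also had the fewest counts, 9019665. Markers of blood, stromal and liver cells summed to 54.1 and 35.35 CPM in these libraries and to 12.73 to 18.97 CPM in the other 6, with PTPRC, CD3E and LUM at 0 counts in all 8. COL1A1, with 1678 counts over the 8 libraries and up to 41.6 CPM in 1 of them, and SERPINA1, with 981 counts, carried most of that sum. Their part in the results was not tested, and values without both libraries are given below.

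Puromycin lowered the RUVBL1 enrichment of 8 mRNAs under CB-6644 and raised none (edgeR quasi-likelihood test with Benjamini-Hochberg adjustment, adjusted p under 0.05, 0.0501% of the genes tested). These were SCAF4, SCAF8, CHERP, PCF11 and RPRD2, which encode proteins with a domain that binds the C-terminal tail of RNA polymerase II (CTD), PRPF8, the core protein of the U5 snRNP, and WASHC2A and WASHC2C, 2 near-identical genes for the retromer-binding subunit of the endosomal WASH complex. The falls ran from 3.71-fold for RPRD2 to 37.8-fold for SCAF4. All 8 were called enriched on GFP beads after CB-6644 alone, and 0 of the 8 after CB-6644 plus puromycin. Over all genes tested 1.87% and 0.557% were called enriched. The change is computed from these same enrichments, so genes picked for a large fall tend to start high and end low. These counts are a description and no separate support. At an unadjusted p under 0.05, 187 genes were lower and 142 higher, together 2.06% of the genes tested. That share is below what such a threshold gives with no change in any gene. DESeq2 called 14 lower and 0 higher, among them the same 8. Leaving out GFP bead replicate 1 after CB-6644 gave 124 calls (76 higher and 48 lower), which leaves the library that stands apart alone in its group, leaving out replicate 2 of that group gave 14, and leaving out uncoupled bead replicate 2 after CB-6644 or GFP bead replicate 2 after both drugs gave 5. Without both libraries that stand apart it was 13, all lower and including the 8.

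**Figure D1:**
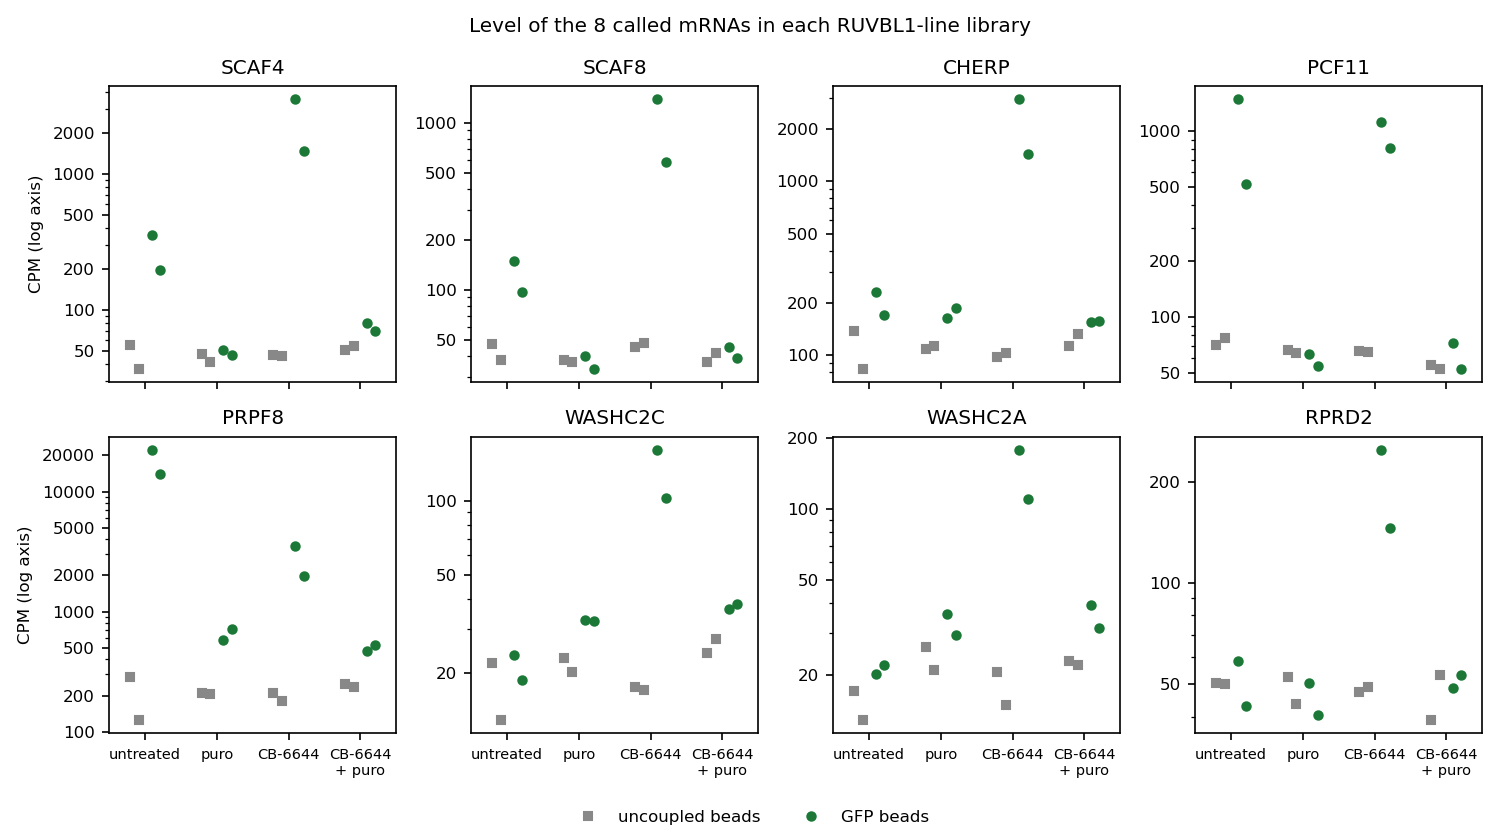
Level of each of the 8 called mRNAs (CPM, log axis) in the 16 libraries of the RUVBL1 line, by treatment. Circles are GFP beads and squares uncoupled beads, 2 libraries each. In every panel both GFP bead libraries after CB-6644 lie above both after CB-6644 plus puromycin, for SCAF4 at 3510 and 1477 CPM against 80.0 and 69.6 CPM.

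The largest fall was that of SCAF4 (chromosome 21, 31671000 to 31732118, GRCh38), whose protein, together with SCAF8, keeps RNA polymerase II from ending transcripts early. After CB-6644 the GFP beads held 3510 and 1477 CPM of it and the uncoupled beads 46.3 and 45.9 CPM. After CB-6644 plus puromycin the GFP beads held 80.0 and 69.6 CPM and the uncoupled beads 50.1 and 54.4 CPM. The GFP bead libraries after CB-6644 alone were high, and the other 6 lay between 45.9 and 80.0 CPM. Its log2 enrichment went from 5.76 ± 0.40 (SE) to 0.52 ± 0.33, a change of -5.24 ± 0.49 (edgeR adjusted p = 6.99e-06).

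SCAF8 (chromosome 6, 154733378 to 154834244), is the paralog of SCAF4. Its GFP bead level was 1376 and 580 CPM after CB-6644 and 45.7 and 39.2 CPM after both drugs, beside 45.8 and 48.2 CPM and then 37.3 and 42.2 CPM on uncoupled beads. With puromycin the GFP bead libraries thus lay within the range of the 4 uncoupled libraries. The enrichment changed by -4.28 ± 0.44, from 4.38 ± 0.34 to 0.10 ± 0.30 (edgeR adjusted p = 1.21e-05).

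CHERP (chromosome 19, 16517894 to 16542437) encodes a CTD-binding protein that associates with splicing factors. Its GFP bead libraries were at 2947 and 1439 CPM after CB-6644 and at 156 and 157 CPM after both drugs. Uncoupled beads gave 98.4 and 103 CPM, then 113 and 133 CPM. Its GFP bead level with puromycin stayed above both uncoupled libraries of that treatment, but the enrichment left, 0.35 ± 0.30, was not called (edgeR adjusted p = 0.745). The change was -4.09 ± 0.44, a 17.1-fold fall (edgeR adjusted p = 1.35e-05).

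PCF11 (chromosome 11, 83157131 to 83187451) encodes the factor that couples the cleavage of RNA polymerase II transcripts to termination. GFP beads held 1117 and 808 CPM after CB-6644 and 72.3 and 52.7 CPM after both drugs, and the 4 uncoupled libraries were between 52.6 and 65.7 CPM. With puromycin 1 GFP bead library lay above the uncoupled range and 1 within it. The enrichment changed by -3.68 ± 0.48 from 3.89 ± 0.36 (edgeR adjusted p = 0.000526).

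RPRD2 (chromosome 1, 150364147 to 150476566), another CTD-binding protein, had the smallest called fall, -1.89 ± 0.35 (edgeR adjusted p = 0.033). Its GFP bead libraries gave 248 and 145 CPM after CB-6644 and 48.5 and 53.3 CPM after both drugs, against 39.2 to 53.1 CPM over the 4 uncoupled libraries. The groups of GFP beads did not overlap, but the call was lost in 5 of the 8 fits that each left out 1 library.

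These 5 genes belong to a list of 7 CTD-interaction domain proteins. That list was made with earlier results of these data known, so its count is a description: 5 of 7 were called lower, 0 higher, and the median change was -3.68, against 0.00 over all genes tested. The members that did not pass the test were RPRD1A at 0.14 ± 0.34 and RPRD1B at -0.10 ± 0.37, whose proteins bind the same polymerase tail. Neither was enriched after CB-6644 alone (-0.50 ± 0.24 and 0.12 ± 0.26), and the change of RPRD1A was below 0 with total-count scaling. The same 5 members were the ones called enriched after CB-6644, a value that enters the change itself.

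PRPF8 (chromosome 17, 1650629 to 1684867) gave 3519 and 1968 CPM on GFP beads after CB-6644 and 468 and 532 CPM after both drugs. On uncoupled beads it was at 209 and 180 CPM and then at 252 and 237 CPM. The GFP beads thus remained above the uncoupled beads with puromycin, by 1.03 ± 0.36, which was not called (edgeR adjusted p = 0.36). The change was -2.79 ± 0.51 (edgeR adjusted p = 0.033) and was called in 2 of the 8 fits that each left out 1 library. Over the 17 tested U5 and U4/U6 snRNP proteins and assembly factors PRPF8 was the single call, and the median change was -0.10. EFTUD2, the GTPase of the U5 snRNP that sits beside PRPF8, was at -0.96 ± 0.88 and not called.

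Reads of WASHC2C and WASHC2A (chromosome 10, 45727043 to 45792964 and 50067954 to 50133509) could be split or exchanged between these near-identical copies, so the pair is best taken as 1 signal. WASHC2C was at 161 and 103 CPM on GFP beads after CB-6644 and at 36.4 and 38.0 CPM after both drugs. Its uncoupled libraries were at 17.4 and 17.0 CPM and at 24.1 and 27.4 CPM, so part of the change came from higher uncoupled values with puromycin (0.58 ± 0.25, not called). The change was -2.41 ± 0.35 (edgeR adjusted p = 0.00211). WASHC2A gave 177 and 110 CPM, then 39.4 and 31.5 CPM, with 14.9 to 22.7 CPM on uncoupled beads, and changed by -2.36 ± 0.36 (edgeR adjusted p = 0.00256). The other 4 tested WASH subunits did not pass the test, with WASHC1 at -0.90 ± 0.57, WASHC5 at -0.35 ± 0.31, WASHC4 at 0.14 ± 0.32 and WASHC3 at 0.59 ± 0.52, and the median of the 6 was -0.63. WASHC1 also has near-identical copies in the genome.

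**Figure D2:**
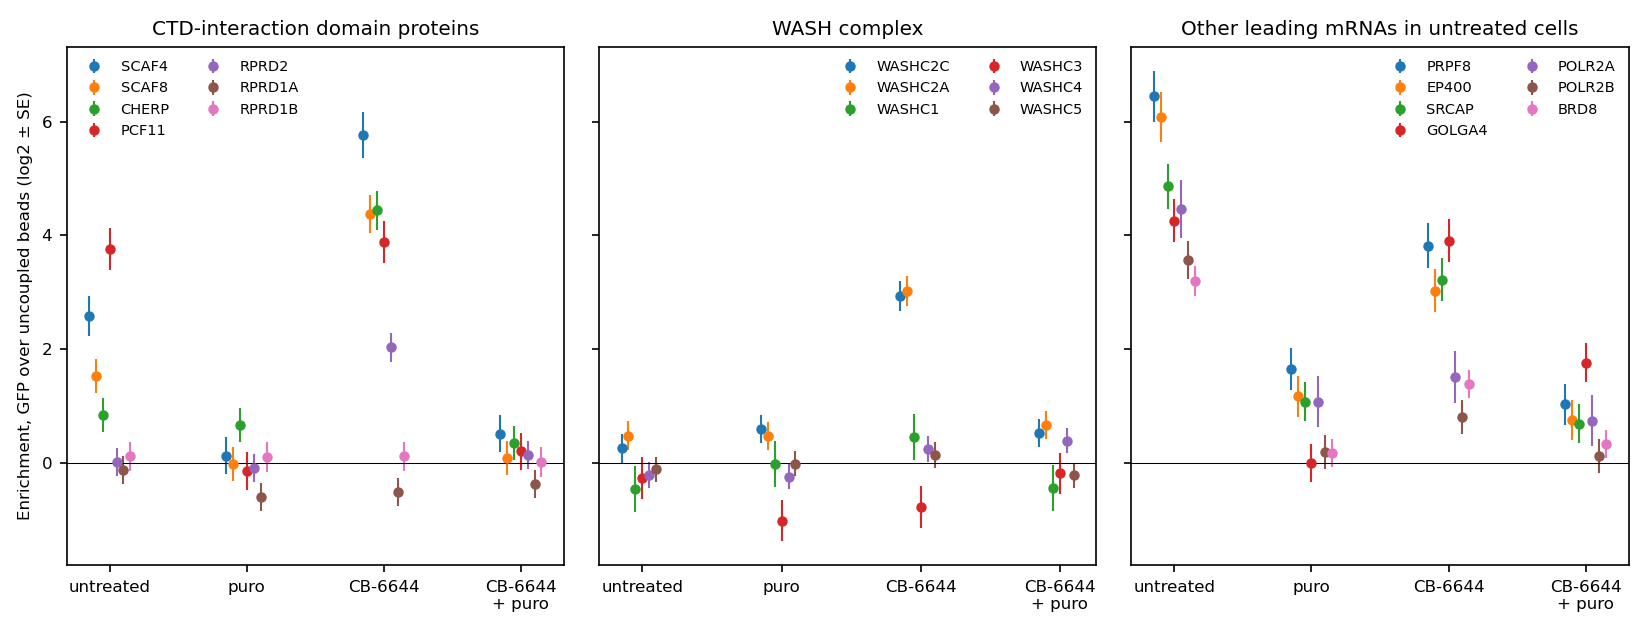
Enrichment of GFP beads over uncoupled beads (log2, ± SE from the fit of 16 libraries) in each of the 4 treatments of the RUVBL1 line, for the CTD-interaction domain proteins, the WASH subunits and other mRNAs that led in untreated cells. The 8 called mRNAs lie between 2.03 and 5.76 after CB-6644 and between 0.10 and 1.03 after CB-6644 plus puromycin.

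Just short of the threshold were SRCAP at -2.53 ± 0.49 (edgeR adjusted p = 0.0594) and CHTOP at -1.63 ± 0.33 (edgeR adjusted p = 0.0834). SRCAP, the motor of the remodeller that deposits H2A.Z, was at 1586 and 1033 CPM on GFP beads after CB-6644 and at 255 and 184 CPM after both drugs, against 122 to 154 CPM on uncoupled beads. CHTOP, an mRNA export factor, was at 174 and 95.8 CPM, then at 47.9 and 42.5 CPM, against 44.3 to 47.8 CPM. For both, the GFP bead groups did not overlap. SRCAP was called with upper-quartile scaling (adjusted p = 0.0378) and CHTOP with upper-quartile and total-count scaling (adjusted p = 0.0378 and 0.0211), and DESeq2 called both.

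EP400, the motor of the TIP60 remodeller, came next at -2.27 ± 0.51 (edgeR adjusted p = 0.236), with 1501 and 915 CPM on GFP beads after CB-6644 and 268 and 211 CPM after both drugs. GOLGA4, a tethering golgin of the trans-Golgi network, changed by -2.14 ± 0.48 (edgeR adjusted p = 0.241), from 3227 and 1306 CPM to 467 and 540 CPM. Its enrichment with both drugs was still called, at 1.76 ± 0.35 (edgeR adjusted p = 0.0109). MPHOSPH10, a protein of the U3 snoRNP, was at -1.57 ± 0.36 (edgeR adjusted p = 0.241). DESeq2 and the fit with no low-count filter called these 3 as well, and the replicate block called EP400 alone of them. Upper-quartile scaling, total-count scaling and the fit of the 8 CB-6644 libraries alone called none of the 3.

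The mRNAs of the R2TP subunits themselves were not called. RPAP3 was at 339 and 140 CPM on GFP beads after CB-6644, at 47.9 and 49.7 CPM after both drugs and at 39.9 to 61.5 CPM on uncoupled beads. Its groups of GFP beads did not overlap and the change was -2.73 ± 0.61, yet the edgeR adjusted p was 0.758, while DESeq2 called it at an adjusted p of 0.000231. The bait's own mRNA, RUVBL1, was at 88.3 and 60.7 CPM and then at 91.5 and 89.6 CPM on GFP beads, a change in enrichment of -0.15 ± 0.47. RUVBL2 changed by 0.18 ± 0.36. Neither differed beyond its error, and both turned sign under some settings.

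By list, the INO80, SRCAP and TIP60 subunits had 0 of 30 called and a median change of 0.00, although the list holds SRCAP and EP400. RNA polymerase subunits had 0 of 31 called and a median of 0.17, with POLR2A, the largest subunit of RNA polymerase II, at -0.77 ± 0.62 and POLR2B at -0.68 ± 0.43. Their assembly factors had 0 of 7 called and a median of -0.41, RPAP3 being the lowest, followed by RPAP2 at -1.08 ± 0.66. PIKK kinases and their TTT co-chaperone had 0 of 9 called, with TELO2, a TTT subunit, at -1.05 ± 0.58. snoRNP proteins and assembly factors had 0 of 14 called, with ZNHIT6, an assembly factor of box C/D snoRNPs, lowest at -1.11 ± 0.35. The 4 Argonautes, which carry small RNAs, were all below 0 with a median of -0.48 and 0 called. These counts stand beside 49.9% of all genes tested that lay below 0.

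**Figure D3:**
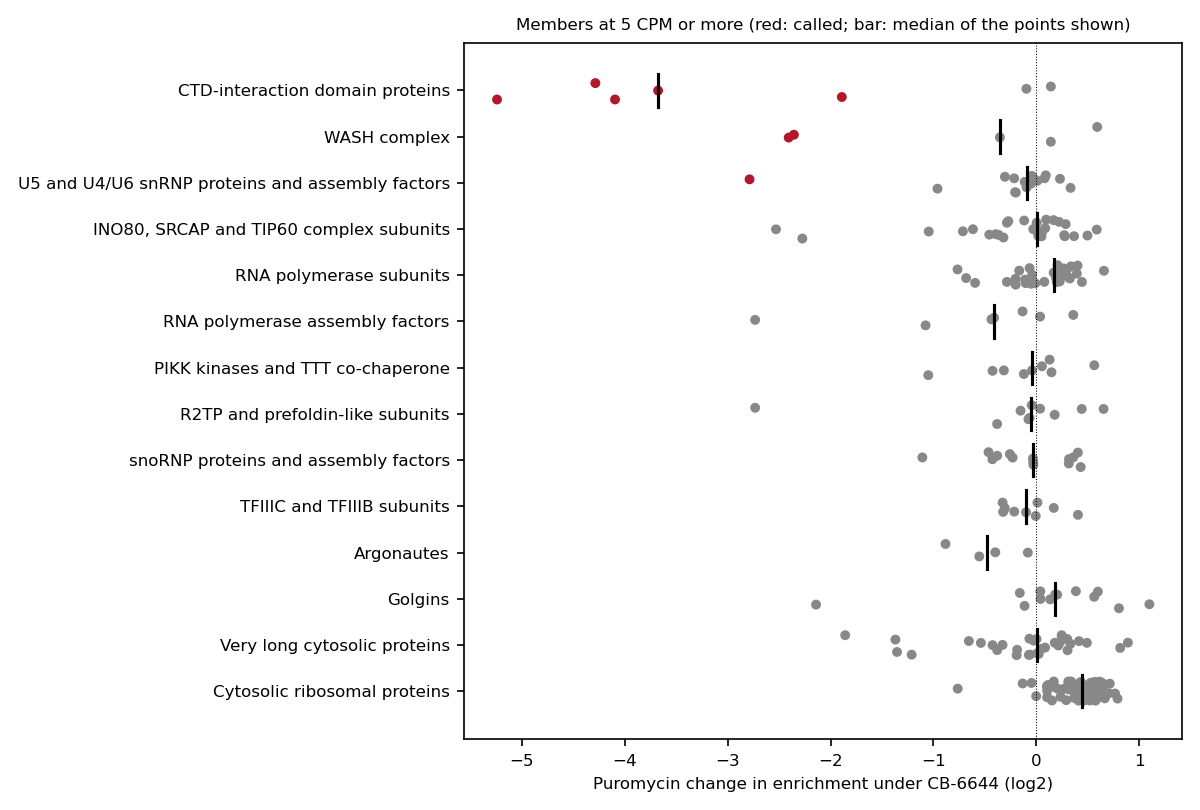
Change in log2 enrichment with puromycin under CB-6644 for members of 14 gene lists with a mean of at least 5 CPM over the 8 libraries; red points passed the test and the bar is the median of the points shown, so WASHC1 and other low members are left out. The calls lie in the CTD-interaction domain, WASH and U5 lists, while cytosolic ribosomal proteins lie mostly between 0 and 1.

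The fall was seen on the GFP beads. In a comparison of the GFP bead libraries alone, 15 genes passed the test (0.0939% of those tested), 13 of them lower with puromycin (0.0814%) and 2 higher (0.0125%), AKAP9 at 1.27 ± 0.25 and MIA3 at 1.33 ± 0.26. The 13 held all 8 mRNAs above, which were picked on a change that uses these same libraries. The others were SRCAP, EP400, GOLGA4, CHTOP and TMEM265. SCAF4 fell by 5.06 on the log2 scale there and moved by 0.18 ± 0.33 on uncoupled beads. CHERP fell by 3.81 on GFP beads against 0.28 ± 0.30 on uncoupled beads, and PRPF8 by 2.46 against 0.33 ± 0.36. On uncoupled beads edgeR called 0 genes, with 1422 at an unadjusted p under 0.05, and DESeq2 called 72. Over all genes tested, the GFP bead libraries after CB-6644 lay wholly above those after both drugs for 13.5%, and wholly below them for 16.1%, so a lack of overlap alone is common with 2 libraries a group. The 15 calls went to 784 and 31 on leaving out GFP bead replicate 1 or 2 after CB-6644, and to 9 and 7 on leaving out GFP bead replicate 1 or 2 after both drugs.

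After CB-6644 alone 387 genes differed between the beads (2.42% of the genes tested), 298 higher on GFP beads (1.87%) and 89 lower (0.557%), and after CB-6644 plus puromycin 89 were higher (0.557%) and 0 lower, with 411 lower at an unadjusted p under 0.05 and 3 by DESeq2. A gene called after CB-6644 and not after both drugs is not thereby shown to have changed, and 8 passed the test of the change itself. The split after CB-6644 was 771 to 47 with total-count scaling and 308 to 176 with upper-quartile scaling. Leaving out GFP bead replicate 1 or 2 after CB-6644 turned the 387 calls into 3585 or 153, and leaving out uncoupled bead replicate 1 or 2 gave 64 or 48. Of the enrichments after both drugs, 58 passed on leaving out GFP bead replicate 1, and 21 or 24 on leaving out uncoupled bead replicate 1 or 2.

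Small RNAs made up 60 of the 89 RNAs called higher on GFP beads after both drugs. The count table held 568 box C/D and H/ACA snoRNAs and scaRNAs, which guide RNA modification, and 230 had enough counts to be tested. Of the 230, 85 were called higher after CB-6644 (median enrichment 3.90) and these 60 after CB-6644 plus puromycin (median enrichment 2.58). A member could pass the count filter through a GFP bead group alone, where these RNAs were high. The shares and medians therefore describe the tested members and are no separate support for enrichment. Their summed level on GFP beads was 3972 and 11290 CPM after CB-6644 and 9394 and 5612 CPM after both drugs, and 284.2 to 510.6 CPM on the 4 uncoupled libraries. Both groups of GFP beads lay above the uncoupled beads and overlapped each other, and the higher library of each was the one that stood apart. SCARNA2, a scaRNA of Cajal bodies, was at 232 and 350 CPM after CB-6644 and 183 and 130 CPM after both drugs, and its enrichment of 4.49 ± 0.30 became 3.20 ± 0.28, a change of -1.29 ± 0.37 that was not called. SNORD3C, 1 of several near-identical U3 copies whose reads may be shared, stood at 5.54 ± 0.44 and 7.52 ± 0.51. These values rest on few uncoupled counts, 13 and 30 after CB-6644 and 11 and 3 after both drugs. On GFP beads SNORD3C differed by 0.21 ± 0.34 with puromycin, and the libraries overlapped. In the change itself 0 of 230 were called and the median was -0.95, with 181 below 0. On leaving out GFP bead replicate 1 or 2 after CB-6644 the median was -1.64 or 0.64, on leaving out GFP bead replicate 1 after both drugs -1.60, and without both libraries that stand apart -0.17 with 126 below 0.

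No gene rose by the test. The 10 with the smallest p among those higher with puromycin had changes of 0.95 to 1.98 and edgeR adjusted p-values of 1. They included VTRNA1-3, a vault RNA, at 1.97 ± 0.55, BCYRN1, a neuronal small RNA, at 1.06 ± 0.33, and the mRNAs of GOLGB1, a giant golgin, at 1.10 ± 0.39 and AKAP9, a Golgi and centrosome scaffold, at 1.02 ± 0.34. The enrichment of AKAP9 was not called after CB-6644 (0.68 ± 0.24, edgeR adjusted p = 0.119). It was called after both drugs (1.70 ± 0.25, edgeR adjusted p = 0.00059), though the change between them was not. On GFP beads AKAP9 went from 68.2 and 64.2 CPM to 171 and 149 CPM. BCYRN1 instead went from depletion on GFP beads (-1.26 ± 0.24) to -0.21 ± 0.23. With puromycin BCYRN1 differed by -0.78 ± 0.23 on uncoupled beads and by 0.28 ± 0.23 on GFP beads. For VTRNA1-3 these values were -1.40 ± 0.39 and 0.57 ± 0.40. The GFP bead libraries of both RNAs overlapped, and neither RNA was called on either kind of bead. Golgins as a list had 0 of 13 called and a median of 0.18, with GOLGA4 the lowest and GOLGB1 the highest member.

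Cytosolic ribosomal protein mRNAs had changes of the opposite sign to the called mRNAs, none of which passed the test. Of 84, 79 were above 0 and the median was 0.44. Their median enrichment was -0.78 after CB-6644, with 1 called lower, and -0.37 after both drugs, with 0 called. On each kind of bead taken singly, their median difference with puromycin was -0.10 on GFP beads, with 61 of 84 below 0, and -0.56 on uncoupled beads, with 83 of 84 below 0, so the positive change came with lower values on the uncoupled beads. The median change was 0.81, with 3 called higher, or 0.15 on leaving out GFP bead replicate 1 or 2 after CB-6644, and 0.72 or 0.06 on leaving out GFP bead replicate 1 or 2 after both drugs. Replication-dependent histones had a median change of 0.42, with 40 of 49 above 0, and other structured non-coding RNAs one of 0.50, with 12 of 19 above 0, and 0 were called in each. Their median differences with puromycin were 0.09 and 0.15 on GFP beads. On uncoupled beads they were -0.39 and -0.68, with 48 of 49 and 17 of 19 below 0. On leaving out GFP bead replicate 1 or 2 after CB-6644 the histone median was 0.88, with 9 called higher, or 0.10, and that of the structured RNAs 0.33 or 1.60. Medians were 0.12 for the HSP90 and HSP70 system, 0.10 for CCT and prefoldin and 0.03 for the proteasome, with 0 called in each. These 3 medians moved with GFP bead replicates 1 and 2 after CB-6644, to 0.57 or -0.28, 0.55 or -0.21 and 0.46 or -0.28 on leaving out the one or the other, and 1 proteasome gene was called higher without replicate 1. Very long cytosolic proteins had 0 of 33 called and a median of 0.00, and their lowest member, PLEC, at -1.86 ± 1.16, was at 0.00 on leaving out GFP bead replicate 2 after CB-6644.

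The same change without CB-6644 was measured on the other 8 libraries of the line, so no library was shared between the 2 comparisons, although 1 fit gave both. There 18 genes passed the test (0.113% of those tested), 12 lower (0.0751%) and 6 higher (0.0376%). SCAF4, PCF11 and PRPF8 were lower in both, which is 37.5% of the 8 called under CB-6644 and 16.7% of the 18 called without it. Across the 10970 genes with at least 5 CPM the 2 changes had a Pearson's r of -0.196, a description over genes that share libraries and depth. Among the other 8 libraries, untreated uncoupled bead replicate 2 had the fewest counts, 10974407. It also stood apart on the second principal component (15.2% of the variance), at -89.4, with the rest of the line at -31.66 to 44.07. On leaving out untreated uncoupled bead replicate 2 the 18 calls went to 344, on leaving out replicate 1 to 11, and on leaving out untreated GFP bead replicate 1, GFP bead replicate 2 after puromycin, or either uncoupled library after puromycin to 8.

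**Figure D4:**
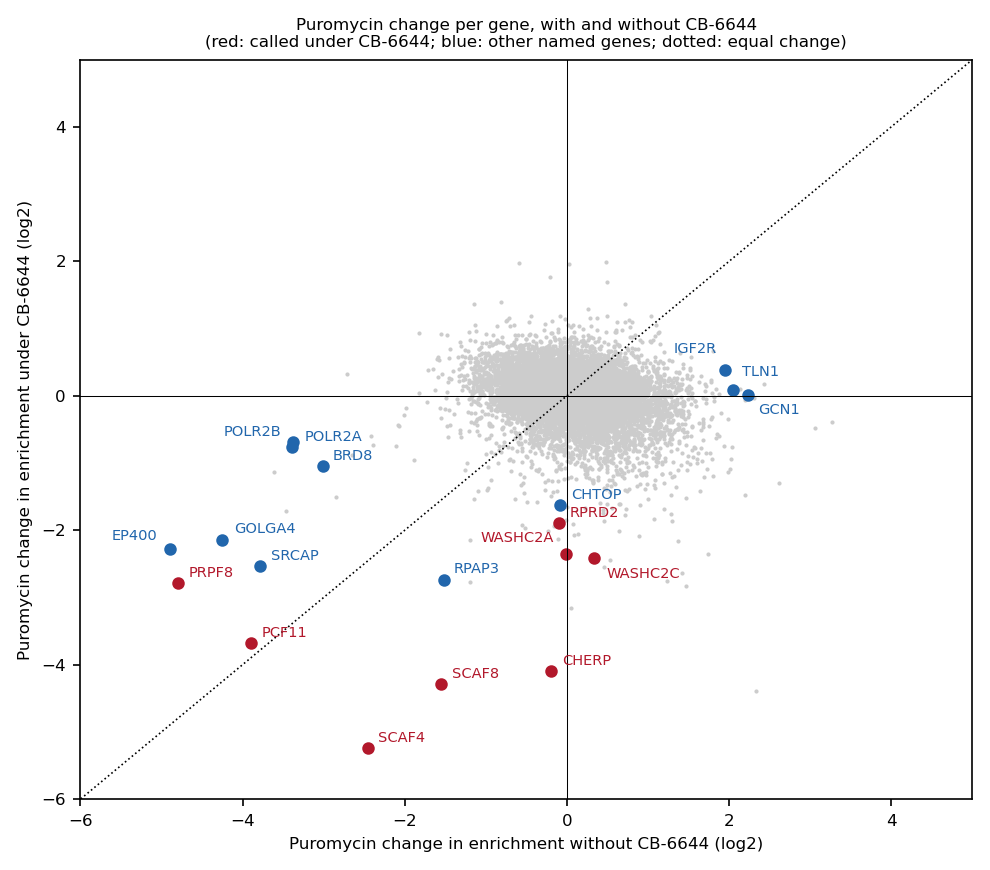
Puromycin change in log2 enrichment under CB-6644 (vertical axis) against the same change without CB-6644 (horizontal axis) for the 10970 genes with a mean of at least 5 CPM over the 8 CB-6644 libraries. Red points are the 8 called under CB-6644, blue points other named genes, and the dotted line marks equal change; CHERP, RPRD2 and the WASHC2 pair lie near 0 without CB-6644, and PCF11 lies near the dotted line.

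Without CB-6644 the 8 mRNAs had unlike values. PCF11 had like changes without and with the inhibitor, -3.90 ± 0.48 and -3.68 ± 0.48, and a difference of 0.22 ± 0.65. SCAF4 and SCAF8 were at -2.45 ± 0.47 and -1.55 ± 0.42 without it, from untreated GFP bead levels of 356 and 194 CPM for SCAF4. CHERP (-0.19 ± 0.42), RPRD2 (-0.09 ± 0.35), WASHC2A (-0.01 ± 0.35) and WASHC2C (0.33 ± 0.35) were near 0 without it, and none of these 4 was called enriched in untreated cells (where 0.914% of the genes tested were), WASHC2C being at 23.5 and 18.7 CPM on GFP beads there. PRPF8 fell by 4.79 without the inhibitor, from 22109 and 13858 CPM on untreated GFP beads to 585 and 718 CPM after puromycin.

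The test of the difference between the 2 changes called 1 gene of 15976 (0.00626%), CHERP, whose change was more negative under CB-6644 by -3.91 ± 0.60 (edgeR adjusted p = 0.0194). WASHC2C (-2.74 ± 0.50, edgeR adjusted p = 0.118), WASHC2A (-2.35 ± 0.50, 0.276), SCAF8 (-2.74 ± 0.60, 0.32), SCAF4 (-2.79 ± 0.66, 0.447) and RPRD2 (-1.80 ± 0.49, 0.447) missed the threshold in the same direction. In the other direction PRPF8, also among the 8, missed it at 2.005 ± 0.71 (edgeR adjusted p = 0.566). So did EP400 (2.63 ± 0.71, edgeR adjusted p = 0.447), GOLGA4 (2.11 ± 0.67, 0.534) and POLR2B (2.69 ± 0.60, 0.338). With these values a difference was not shown for them, and their errors do not show that the changes were alike. The count was 0 on leaving out untreated GFP bead replicate 2, untreated uncoupled bead replicate 1, any 1 library after puromycin alone, or any 1 of the CB-6644 libraries other than the GFP beads after CB-6644 alone. It was 876 or 5 on leaving out replicate 1 or 2 of the latter and 4 on leaving out untreated uncoupled bead replicate 2, and DESeq2 called 19.

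Sets of genes chosen on the other 8 libraries gave the following values. The 12 mRNAs called lower without CB-6644 were all below 0 under it, with a median of -1.93 and 3 calls, against 49.9% and 0.00 over all genes. Those not yet described include BRD8, a bromodomain subunit of TIP60, at -1.05 ± 0.34 and TMEM265 at -1.72 ± 0.45. The 20 mRNAs with the largest called enrichment in untreated cells had 19 below 0, a median of -1.004 and the calls SCAF4, PCF11 and PRPF8. Of these 20, 11 were also among the 12, and the 3 calls were the same, so these sets are not separate. The 6 called higher without CB-6644 did not do the same: GCN1, which activates the stress kinase GCN2, TLN1, IGF2R, ESYT1, DPP3 and TBCD ranged from -0.07 to 0.38 under CB-6644, with a median of 0.05 and 0 called. Values this close to 0 had no stable sign, and those of GCN1, TLN1, ESYT1 and TBCD turned under some settings.

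In the RPAP3 line, fitted on its own 8 libraries without CB-6644, puromycin lowered 37 of 15202 tested genes (0.243%). Among them were 5 of the 8: SCAF4 at -4.64 ± 0.25, PRPF8 at -4.74 ± 0.52, SCAF8 at -3.35 ± 0.21, PCF11 at -3.32 ± 0.20 and CHERP at -2.91 ± 0.18. SRCAP, EP400, GOLGA4, RPAP3, POLR2A and POLR2B were among the others called there, RPAP3 being the mRNA of that line's own bait. The remaining 3, RPRD2 (-0.31 ± 0.17), WASHC2C (-0.26 ± 0.22) and WASHC2A (-0.20 ± 0.23), were near 0 with RPAP3. They were not called enriched with RPAP3 in untreated cells either, at 0.29 ± 0.12, 0.36 ± 0.16 and 0.07 ± 0.16, where 1.53% of the genes tested were called higher. The tables of the 2 lines were fitted apart, and the difference between them was not tested.

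**Figure D5:**
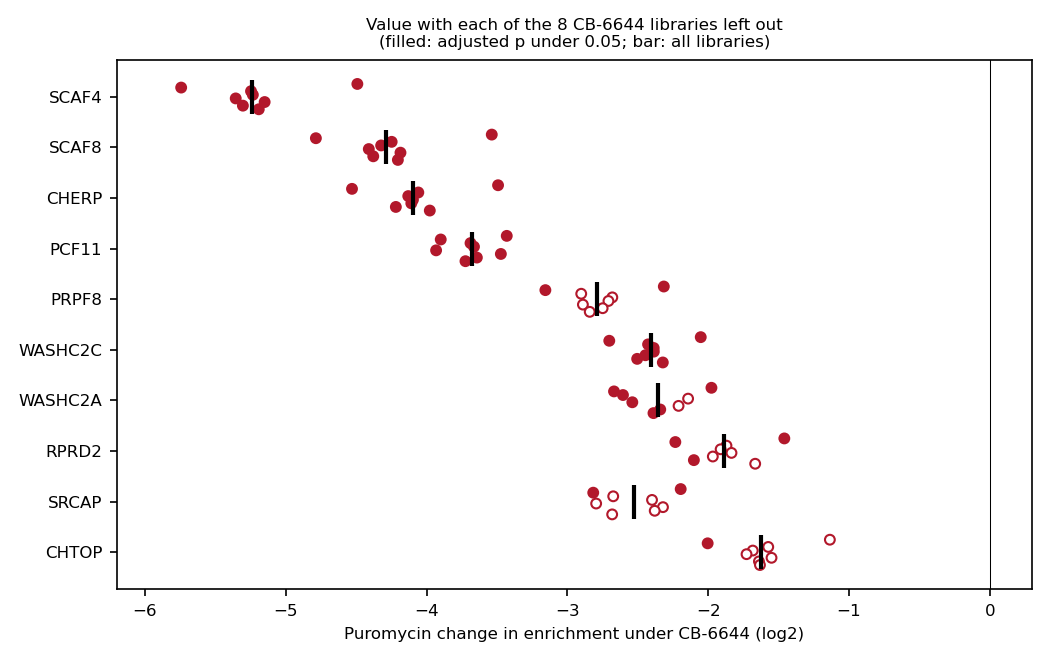
Change in log2 enrichment with puromycin under CB-6644 for 10 mRNAs when each of the 8 libraries is left out in turn. Filled points passed the test at an adjusted p under 0.05, open points did not, and the bar is the value with all libraries; SCAF4, SCAF8, CHERP, PCF11 and WASHC2C are filled in all 8 fits and every point lies below -1.

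When each of the 8 libraries was left out in turn, every value of the 8 mRNAs stayed below 0. SCAF4 stayed between -5.74 and -4.49, SCAF8 between -4.79 and -3.54, CHERP between -4.53 and -3.49, PCF11 between -3.93 and -3.43 and WASHC2C between -2.70 and -2.05, and these 5 were called in all 8 fits. WASHC2A (-2.67 to -1.98) was called in 6, and lost on leaving out uncoupled bead replicate 2 after CB-6644 or GFP bead replicate 2 after both drugs. RPRD2 (-2.23 to -1.46) was called in 3. PRPF8 (-3.16 to -2.31) was called in 2, those that left out either GFP bead library after CB-6644, and SRCAP was called in the same 2. A fit of the 8 CB-6644 libraries alone, with fewer libraries to estimate the spread, called SCAF4, SCAF8, CHERP and PCF11.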

How the data were processed

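RNA recovered with GFP-tagged RUVBL1 was sequenced from HCT116 cells. The authors deposited whole-number read counts per gene, not normalized. The submitters' processing notes name TopHat2 2.1.1, featureCounts 2.0.3, bcl2fastq 2.20.0.422, MultiQC 1.12, FastQC 0.11.9 and build hg38; the kit was stranded, per the labels' protocols. The strand setting and the handling of reads with several placements are not given in the sources used here, so reads of near-identical, overlapping or antisense genes may be split or merged. Counts have no molecular identifiers, and errors cover these libraries only.

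Of 28307 genes, 28013 were matched by gene ID and 1 by symbol to the NCBI GRCh38.p14 gene table, which gave names and positions, and 812 names were updated. The 16 RUVBL1 libraries (8 groups from the labels) were fitted together with edgeR 4.0.16 in R 4.3.3 (filterByExpr, TMM, robust quasi-likelihood; biological coefficient of variation 0.263), and contrasts were tested with Benjamini-Hochberg adjustment over 15976 genes. The RPAP3 line was fitted separately (15202 genes). Enrichment is log2 GFP beads over uncoupled beads. The SE derives from the F statistic, with spread pooled over all libraries of the fit. CPM of single genes are scaled by depth and TMM factor. Summed CPM of gene groups, and the highest CPM given for COL1A1, are scaled by total counts only. The TMM factors were largest, at 1.199 and 1.123, in the libraries that stand apart. The script was tested on simulated data.

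Named genes were RUVBL1, RUVBL2, RPAP3, the 10 leading genes in each direction at 5 CPM or more, the 20 most enriched in untreated cells, all genes called without CB-6644 or in the difference, and up to 4 members of each of 30 lists with the smallest p. MPHOSPH10, MIA3, RPRD1A, RPRD1B, WASHC4 and WASHC5 were named after their values were seen. The members and lists were chosen with earlier results of these data known. Alternatives were other scalings, DESeq2 1.42.0, no low-count filter, the 8 libraries alone, a replicate block and left-out libraries. Samples sharing a replicate number mostly did not deviate together (r over 0.1 in 4 of 28 pairs of groups, highest 0.27), so no block was used. The lowest r, -0.412, was between the GFP bead groups after CB-6644 and after both drugs. Their replicates thus deviated in opposite directions, and the libraries that stand apart have different replicate numbers in these groups.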

Additional observations from a re-analysis of the deposited data

Results flagged for a closer look

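CHERP was called as differing between cells with and without the inhibitor in its puromycin change. The difference was -3.91 ± 0.60 (log2, SE) by the interaction test of edgeR (adjusted p = 0.0194). The call rests on the full set of libraries and was lost on leaving out any 1 of many of them, as listed above. The change was -4.09 ± 0.44 under CB-6644, where both GFP bead libraries fell, and -0.19 ± 0.42 without it, where GFP beads held 232 and 171 CPM before and 165 and 187 CPM after puromycin. No cause was tested.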

How the results depend on the processing

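The 8 falls kept their direction under all alternatives run. With DESeq2 the counts of calls were 14 for the change under CB-6644, 192 for that without it, 19 for their difference, 1426 and 208 for the enrichments after CB-6644 and after both drugs, 76 for GFP beads and 72 for uncoupled beads. With no low-count filter they were 16, 199, 75, 1464, 223, 59 and 40. Total-count scaling gave 9 calls without CB-6644, 818 after CB-6644 and 3 on uncoupled beads, and moved the median change of all genes under CB-6644 to -0.20. The fit of 8 libraries gave 4 for the change and 122 and 56 for the enrichments. Without both libraries that stand apart there were 13 calls for the change, 5 for the difference and 164 after CB-6644. The replicate block gave 36 calls without CB-6644, against 18, and 11 under it; it lost none of the 8. With 1 library left out, a lone library being assumed to vary like the rest, the counts ran from 5 to 124 for the change, 8 to 344 without CB-6644, 0 to 876 for the difference, 48 to 3585 and 21 to 67 for the enrichments after CB-6644 and after both drugs, 7 to 784 for GFP beads and 0 to 0 for uncoupled beads.

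Of the 59 genes followed one by one under the alternatives, those whose sign turned had changes near 0 in the full fit, except PLEC. Some named list members, such as RPAP2 and TELO2, were not followed. With total-count scaling GCN1 was at -0.20, RPRD1A at -0.032, RUVBL2 at -0.0024, TLN1 at -0.11 and WASHC4 at -0.063. GCN1 was at -0.031 with upper-quartile scaling, -0.021 with DESeq2, -0.015 without a filter and -0.0029 with the replicate block. Without both libraries that stand apart ESYT1 was at 0.14, RPRD1A at -0.14, RUVBL2 at -0.040, TBCD at 0.18 and TLN1 at -0.00058. With 1 library left out, the value crossed 0 for ESYT1 (-0.25 to 0.11), GCN1 (-0.18 to 0.20), PLEC (-2.66 to 0.0048), RPRD1A (-0.23 to 0.62), RPRD1B (-0.27 to 0.056), RUVBL1 (-0.41 to 0.14), RUVBL2 (-0.15 to 0.59), TBCD (-0.23 to 0.16) and TLN1 (-0.18 to 0.38). The cause was not tested. With 2 libraries a group and total counts from 9019665, changes of low RNAs such as the snoRNAs had large errors.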
